A study of Mus musculus with 4 samples.

Results

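The regions described here are 485 peaks of an anti-Myb CUT&RUN library whose nearest anti-GFP peak, in a second library, had its centre more than 1 kb and at most 10 kb away on the same chromosome. They made up 14.2% of the 3410 anti-Myb peaks. Both libraries came from MEL cells, an established mouse erythroleukemia line. The anti-Myb library was made from MEL cells with no further label, with an antibody against Myb itself. The anti-GFP library was made from MEL cells labelled Myb-GFP, with an antibody against GFP. That label is taken to mean a GFP-tagged Myb. The labels do not say how the tag was made, whether the tagged cells are 1 clone, or whether untagged Myb remained. The anti-GFP list held 7327 peaks. The study also labels an anti-GFP library in MEL cells without the tag and an IgRab library with no antibody, which were not analysed here, so no control background stands beside the values.

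MYB is a transcription factor of immature blood cells. It binds DNA through its Myb repeats and keeps progenitors dividing, and its level falls as erythroid cells mature. Its binding sites lie at promoters and at distal enhancers, and an enhancer is often made of several bound elements spaced along the DNA. In CUT&RUN a nuclease is brought to the antibody on the protein and cuts the DNA beside it, so that a bound site gives a local pile of short fragments, which is listed as a peak. A peak of the 1 to 10 kb range is too far from its anti-GFP neighbour for the listed intervals to overlap: every anti-Myb interval was 313 bp wide and every anti-GFP interval 337 bp.

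The peaks were chosen by the measured distance between centres, so distances and their count are given as a description. Neither list carries a peak height, and each antibody had 1 library, so no test over replicates was possible and read depth is unknown. Intervals on shares are exact 95% binomial (Clopper-Pearson) intervals, and those on medians come from binomial order statistics. Both cover the counting of peaks only. Peaks that share a neighbour or a locus are not independent.

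Of the 3410 anti-Myb peaks, 1107 had an anti-GFP centre within 1 kb and 1818 had none within 10 kb, which left the 485. Their distances ran from 1010 to 9993 bp, with a median of 4789 bp and quartiles of 2386 and 7093 bp. The number per kb was highest next to the lower limit, with 93 peaks at 1 to 2 kb and 72 at 2 to 3 kb. It was 47 at 3 to 4 kb and 41 at 4 to 5 kb. The 1 kb bins from 5 to 8 kb held 56, 51 and 55 peaks, and the last bins held 39 and 31. Beyond the range the count did not drop at once: 48 peaks lay at 10 to 11 kb and 51 at 13 to 14 kb. The upper limit of 10 kb therefore fell within a slow decline and did not mark an edge in the data.

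The 3 peaks just inside the lower limit were on chromosome 11 at 97307386 to 97307698, on chromosome 10 at 80140604 to 80140916 and on chromosome 4 at 83170551 to 83170863. Their distances were 1010, 1013 and 1021 bp. The 3 just outside it, at 984, 995 and 995 bp, were on chromosome 10 at 92607470 to 92607782, chromosome 18 at 80579512 to 80579824 and chromosome 2 at 153436612 to 153436924. At the upper limit, the last peaks inside were on chromosome 2 at 73368684 to 73368996, chromosome 3 at 97058815 to 97059127 and chromosome 19 at 5922447 to 5922759. They were 9944, 9948 and 9993 bp from an anti-GFP centre. The first peaks outside, at 10005, 10038 and 10044 bp, were on chromosome 2 at 165714175 to 165714487, chromosome 15 at 58890963 to 58891275 and chromosome 18 at 62325959 to 62326271. The distances named on either side of a limit thus differed by at most 100 bp.

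How many peaks would fall in this range in the same neighbourhoods without a link between the lists was described by moving the anti-Myb peaks by 20 fixed shifts, from 10 to 100 kb in steps of 10 kb to either side. Moved in this way, the whole anti-Myb list had a mean of 575 ± 180 (SD over shifts) peaks in the range, with 445 to 1091 for single shifts. The unmoved 485 was 0.844 times that mean, and 13 of the 20 shifts gave more. Both 10 kb shifts stood apart, at 1061 and 1091 peaks, since they carry the peaks that lie on an anti-GFP peak into the range. With those shifts left out the mean was 519 and the ratio 0.935, and with shifts of 60 to 100 kb alone the mean was 478 and the ratio 1.01. Counted over the whole list, the number of peaks at 1 to 10 kb was thus no higher than the local level, while the number within 1 kb, at 1107, was 16.5 times its local mean of 66.9. The whole-list ratio is lowered by construction: unmoved, those 1107 peaks cannot fall in the 1 to 10 kb range, while moved they can. It is given as a description only.

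The comparison changed when the peaks that lay on or beside an anti-GFP peak were set aside. Moved by the same 20 shifts, the 2303 anti-Myb peaks with no anti-GFP centre within 1 kb had a mean of 356 ± 44.5 (SD over shifts) peaks in the range, from 308 to 453. The unmoved 485 was 1.36 times that mean. These peaks were chosen by the distance the rule uses: unmoved, none had an anti-GFP centre within 1 kb, while moved ones could, so the ratio is given as a description only. As a share of the peaks left beyond 1 kb before or after the move of the whole list, the unmoved value was 21.1%. The mean over shifts was 17.2% (13.3% to 32.7%), a ratio of 1.22. Only the 10 kb shifts, at 31.8% and 32.7%, lay above the unmoved value, and the highest of the other shifts had 19.4%. Set against the moved 2303 peaks, the counts were uneven over distance. At 1 to 2 kb the 93 peaks were 2.17 times the shifted mean of 42.8, whose range over shifts was 32 to 57. At 2 to 3 kb the 72 peaks were 1.68 times the mean of 42.8, with a range of 33 to 63. The bins at 3 to 4 and 4 to 5 kb, with ratios of 1.14 and 1.01, lay inside the range of the shifts. At 5 to 6 kb the 56 peaks again lay above the highest shift, which had 53. From 6 to 10 kb each bin lay inside the range. Bins beyond the 10 kb limit also exceeded every shift: 48 peaks at 10 to 11 kb (ratio 1.47), 51 at 13 to 14 kb (1.65) and 43 at 15 to 16 kb (1.42). Counts above the shifts were thus not confined to the 1 to 10 kb range. Which of the 2 local levels is used therefore decides whether the whole range shows an excess. This comparison was chosen after the data were seen, and neither level keeps moved peaks to open or mappable DNA.

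**Figure D1:**
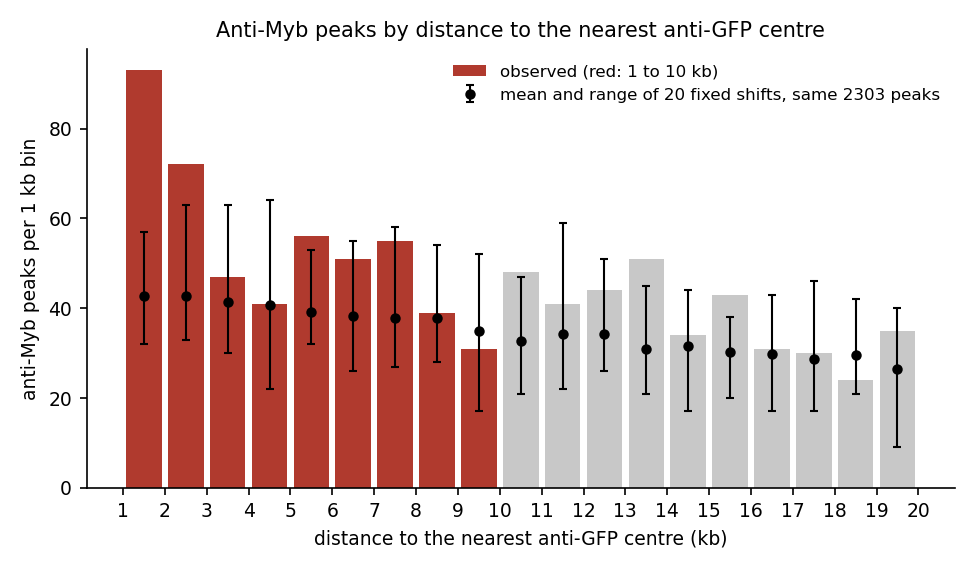
Bars give the number of anti-Myb peaks (y axis) in each 1 kb bin of distance to the nearest anti-GFP centre in kb (x axis), red for the 1 to 10 kb range and grey beyond it. Points and whiskers give the mean and full range over 20 fixed shifts of the same 2303 peaks; the bars at 1 to 2 kb (93) and 2 to 3 kb (72) stand above the whiskers, as do those at 5 to 6, 10 to 11, 13 to 14 and 15 to 16 kb, while those at 3 to 5 kb do not.

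**Figure D2:**
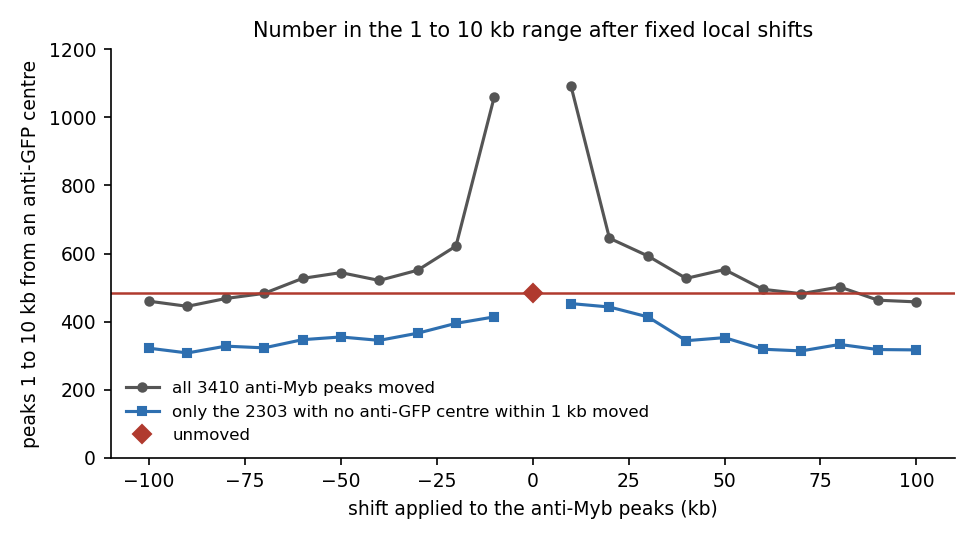
The y axis is the number of anti-Myb peaks 1 to 10 kb from an anti-GFP centre and the x axis the shift in kb applied to them, for all 3410 peaks (grey circles) and for the 2303 with no anti-GFP centre within 1 kb (blue squares). The red diamond and line mark the unmoved 485, which lie below 13 of the 20 grey points and above every blue point.

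The 485 peaks had 464 different anti-GFP peaks as their nearest neighbour. Of these, 443 served 1 anti-Myb peak and 21 served 2, of which 7 had the pair of anti-Myb peaks on opposite sides. The anti-GFP centre lay at the higher coordinate for 258 of the 485 (53.2%, 48.6% to 57.7%), so neither side was preferred beyond the counting interval. A second anti-GFP centre within 10 kb was present for 44 peaks (9.07%), and 27 (5.57%, 3.70% to 7.997%) had anti-GFP centres within 10 kb on both sides. At least 2 anti-GFP centres within 10 kb were present for 6.54% of all anti-Myb peaks and 16.2% of those within 1 kb. Peaks beyond 10 kb can have none by definition. The typical arrangement was 1 anti-Myb peak beside 1 anti-GFP peak.

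Whether the anti-GFP neighbour was itself a site listed by both antibodies separates 2 arrangements. In 75 of the 485 cases (15.5%, 12.4% to 18.99%) the neighbour was overlapped by another anti-Myb peak, so that the peak in the range stood beside a shared site. Over all anti-GFP peaks, 8.28% overlapped an anti-Myb peak. Counted by anti-Myb peak, the nearest anti-GFP peak was overlapped for 11.3% (9.86% to 12.8%) of those beyond 10 kb. For those within 1 kb it was 56.3%, where the overlapping peak can be the anti-Myb peak itself. With a centre distance of 1 kb in place of overlap, the neighbour had another anti-Myb peak in 138 cases (28.45%, 24.5% to 32.7%), against 15.3% of all anti-GFP peaks. Among all anti-GFP peaks this share was 20.7% over the earlier 50% of rows and 9.91% over the later 50%. For neighbours of the 485 it was 30.1% (25.2% to 35.3%) and 24.8% (18.1% to 32.6%), so the value was higher than among all anti-GFP peaks in both parts of the list. In the remaining 347 cases the anti-GFP neighbour had no anti-Myb peak within 1 kb, and 331 of the 485 (68.2%) were themselves the nearest anti-Myb peak of their neighbour. The distance rule allows this only in those 347 cases, which sets much of the share. It was not computed for other anti-Myb peaks.

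Anti-Myb peaks near one another were also frequent. Another anti-Myb centre lay within 10 kb of 192 of the 485 (39.6%, 35.2% to 44.1%), against 21.3% of all anti-Myb peaks. The share was 19.96% (17.6% to 22.4%) for peaks within 1 kb of anti-GFP and 17.3% (15.6% to 19.1%) for peaks beyond 10 kb. The distance rule sets part of this: an anti-Myb peak on the anti-GFP neighbour is bound to lie about as far from the peak in the range as the neighbour does. In 147 cases the nearby anti-Myb peak included one within 1 kb of an anti-GFP centre. Among the 347 peaks whose anti-GFP neighbour had no other anti-Myb centre within 1 kb, 15.9% had another anti-Myb centre within 10 kb, which was not above the 21.3% of the whole list, though that subset leaves out such peaks by its definition. Within 2 kb, another anti-Myb centre was present for 52 of the 485 (10.7%, 8.11% to 13.8%) and for 6.95% of the list. For peaks within 1 kb of anti-GFP this share was 7.41% (5.93% to 9.11%), with an interval that overlapped, and for peaks beyond 10 kb 5.67%. Another anti-Myb centre within 1 kb was present for 3.51% of the 485 and 3.70% of peaks within 1 kb of anti-GFP. In 101 cases (20.8%) the nearest other anti-Myb centre was closer than the anti-GFP centre, against 26.6% of all anti-Myb peaks. That share was 0.181% for peaks within 1 kb of anti-GFP and 44.2% for peaks beyond 10 kb, so the distance rule sets much of it.

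When peaks of both lists were joined into runs with neighbouring centres at most 10 kb apart, the 485 fell into 458 neighbourhoods with a median length of 5.88 kb. Of these, 432 held 1 peak of the range, 25 held 2 and 1 held 3. In 260 cases (53.6% of the 485) the run was no more than 1 anti-Myb and 1 anti-GFP peak. In 82 cases (16.9%) the run also held an overlapping pair.

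The neighbourhood with 3 such peaks spanned 18.5 kb of chromosome 12, from 106247486 to 106266019. Its 2 anti-GFP peaks began at 106247486 and 106257817, and its anti-Myb peaks at 106249616, 106264233 and 106265707. No pair in it overlapped, and the anti-Myb peaks stood 87.5%, 97.1% and 47.0% of the way down their list. A neighbourhood of chromosome 4, from 53425015 to 53452316, held 4 anti-Myb and 2 anti-GFP peaks. Its peaks of the range began at 53427458 and 53452004, and another anti-Myb peak there lay 0.346 kb from an anti-GFP centre without overlapping the peak. On chromosome 7, from 142772692 to 142790902, 2 peaks of the range flanked an overlapping pair at 142780502 to 142780842. The one on the higher side, at 142788968 to 142789280, was row 257 of the anti-Myb list, and its own nearest anti-GFP peak, 1.61 kb on, was row 35 of the anti-GFP list. These 3 regions differ in arrangement: separate peaks with no shared site, a close pair with outlying peaks, and a shared site flanked on both sides. They were picked for holding the most peaks of the range, with ties at 2 broken as given below, and are unlike the 260 simple pairs.

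**Figure D3:**
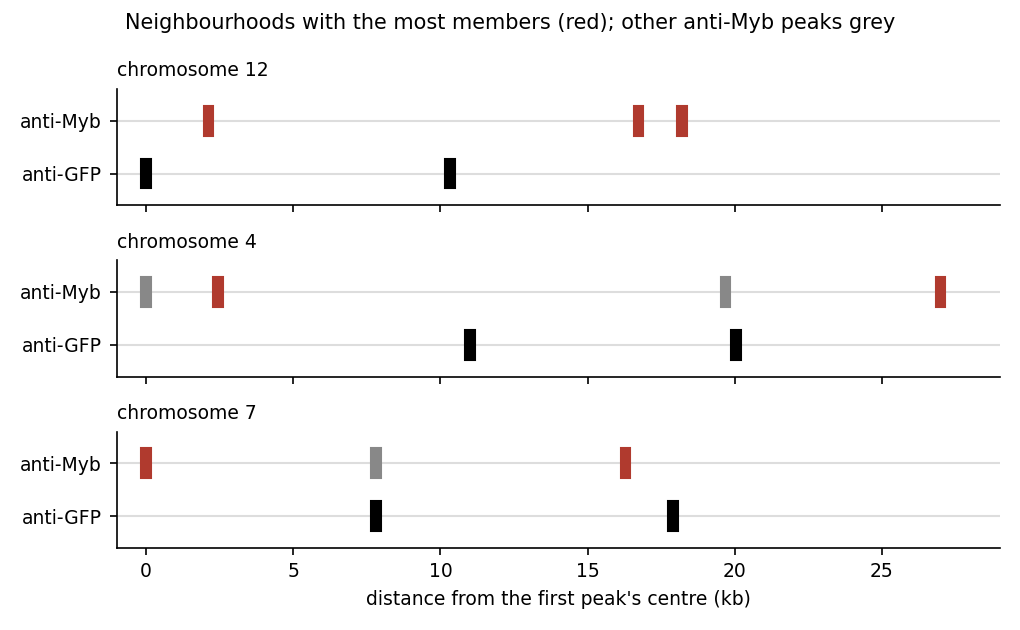
Each panel is 1 neighbourhood, with distance from the centre of its first peak in kb on the x axis and the 2 lists on the y axis; boxes are peaks drawn to their width, red for anti-Myb peaks of the 1 to 10 kb range, grey for other anti-Myb peaks and black for anti-GFP peaks. The chromosome 12 panel has 3 red boxes and no overlapping pair, and in the chromosome 7 panel 2 red boxes flank a grey box that lies over a black one.

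List position is the row number as a percent of the rows. Within a chromosome it rose with the running number in the peak names (Spearman's rho at least 0.983 in the anti-Myb list, across peaks), but the sort key is not named in the files and is not taken here as peak strength. In the anti-Myb list the median peak of the range stood 47.8% of the way down (43.4% to 51.3%), with quartiles of 24.8% and 72.5%. The median was 44.2% (41.3% to 46.9%) for peaks within 1 kb of anti-GFP and 54.6% (52.2% to 56.8%) for peaks beyond 10 kb. The first 10% of the anti-Myb list held 43 of the 485 (8.87%, 6.49% to 11.8%), and the last 10% held 45 (9.28%). In successive blocks of 10% of the list, the share of anti-Myb peaks in the range lay between 10.9% and 17.0% and showed no steady course. The median was 41.1% (33.8% to 46.9%) for the 192 peaks with another anti-Myb centre within 10 kb and 54.2% (47.7% to 59.2%) for the 293 without one. The peaks of the range as a whole therefore had a median near the middle of the list, with the crowded ones earlier and the lone ones later.

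Their anti-GFP neighbours stood earlier in their own list. The median neighbour stood 32.7% of the way down the anti-GFP list (28.2% to 36.2%). Of the 485, 96 (19.8%, 16.3% to 23.6%) had a neighbour in its first 10%, against 16.0% of all anti-Myb peaks. That share was 22.3% for peaks within 1 kb and 11.2% for peaks beyond 10 kb. The median of 32.7% was close to the 32.6% (29.7% to 34.5%) of the nearest anti-GFP peaks of anti-Myb peaks within 1 kb. For anti-Myb peaks beyond 10 kb it was 49.4% (47.4% to 51.2%). After the fixed shifts, the median of the anti-GFP peaks 1 to 10 kb from a moved anti-Myb peak had a mean of 43.5% over shifts and a range of 34.9% to 48.1%, so that the unmoved value lay below all 20. Anti-GFP peaks with another anti-GFP centre within 10 kb had a median of 41.1%.

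By distance within the range, the median neighbour stood at 30.8% for the 93 peaks at 1 to 2 kb, 31.2% for the 160 at 2 to 5 kb and 33.3% for the 232 at 5 to 10 kb. The value moved with the presence of other anti-Myb peaks, which was not particular to this range. Over the whole anti-GFP list, the median was 32.1% for peaks with an anti-Myb centre within 1 kb and 54.6% for those with none within 10 kb. For neighbours of the 485, it was 23.5% (19.9% to 32.8%) for the 138 peaks whose neighbour had another anti-Myb centre within 1 kb. It was 35.9% (30.8% to 39.9%) for the other 347, and these intervals overlapped. It was 22.0% (19.1% to 31.3%) for the 192 peaks with another anti-Myb centre within 10 kb and 38.7% (32.7% to 42.4%) for the 293 without one. The medians of the 347 and of the 293 lay inside the range of the shifts, but only because of both 10 kb shifts, at 35.3% and 34.9%. The lowest of the other shifts was 40.2%, above both medians but inside the interval of the 293. The shifts moved the whole anti-Myb list, crowded peaks included, while the 347 and the 293 were picked for lacking such peaks. The sets are thus unlike, and no local level was computed for these subsets. Over the 485 pairs, the positions of an anti-Myb peak and its anti-GFP neighbour had a Pearson correlation of 0.16 and a Spearman correlation of 0.15. Distance had a Spearman correlation of -0.03 with the anti-Myb position and 0.03 with the anti-GFP position. These are descriptions across pairs that share 2 libraries and in part a neighbour.

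**Figure D4:**
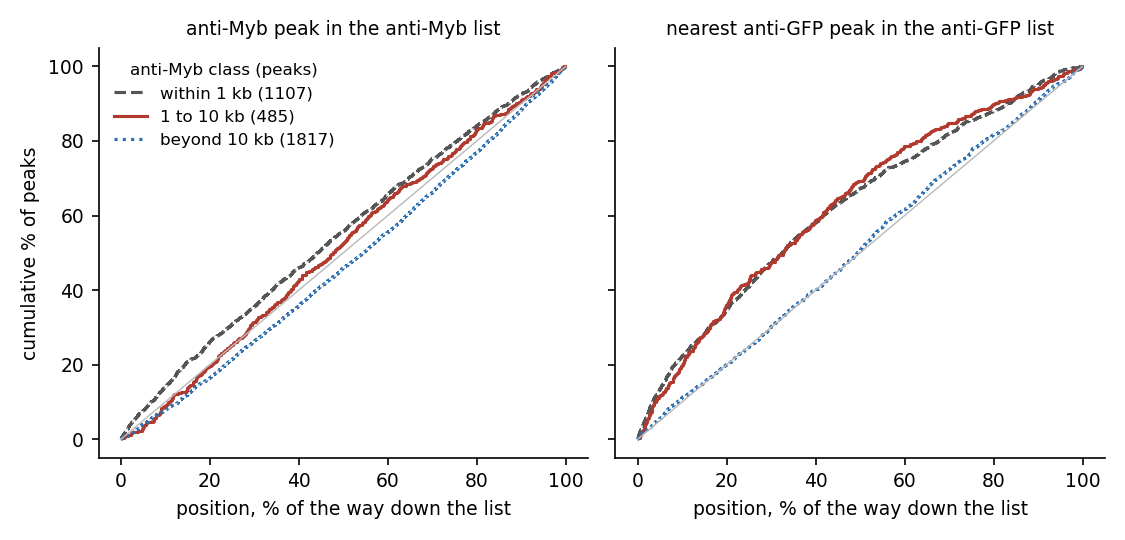
Cumulative percent of peaks (y axis) by position in percent of the way down the list (x axis), for the anti-Myb peak in its own list (left) and its nearest anti-GFP peak in the anti-GFP list (right); lines are anti-Myb peaks within 1 kb (dashed), 1 to 10 kb (solid red) and beyond 10 kb (dotted), and 1 anti-Myb peak on a sequence with no anti-GFP peak is left out. On the left the red line runs between the others, with a median of 47.8%, and on the right it follows the dashed line, with medians of 32.7% and 32.6%.

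The earliest of these peaks in the anti-Myb list was on chromosome 9 at 21117954 to 21118266, row 8, with its anti-GFP neighbour at 21125091 to 21125427, 7.15 kb away at row 1198. A second peak of the range, at 21119040 to 21119352 and row 120, lay 1.09 kb from it and had the same neighbour. Both lay in the segment of chromosome 9 left out in an alternative below. On chromosome 8 the peak at 87225292 to 87225604 was row 22, and its neighbour, 2.77 kb away, was row 1822. The peak on chromosome 11 at 78868103 to 78868415 was row 27, with a neighbour 3.16 kb away at row 1014. On chromosome 7 the peak at 130509582 to 130509894 was row 34, with a neighbour 2.995 kb away at row 1628. None of these anti-GFP neighbours overlapped an anti-Myb peak, and all of them stood among the earliest 25% of anti-GFP rows.

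Other early peaks had neighbours that ranged from early to late. Row 53 lay on chromosome 18 at 32701933 to 32702245, and its neighbour was row 3516. A second peak of chromosome 8, at 125244431 to 125244743 and row 75, had 2 anti-GFP centres within 10 kb, the nearer one 1.19 kb away at row 582. Row 77, on chromosome 19 at 47058344 to 47058656, had a neighbour 4.96 kb away at row 193. Row 79, on chromosome 11 at 98444394 to 98444706, and row 83, on chromosome 4 at 134062090 to 134062402, had neighbours at rows 4273 and 5934. None of the 10 earliest peaks had a neighbour that overlapped another anti-Myb peak. That share was 15.5% over all 485, and 10 peaks are too few to set the early ones apart from it.

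Some pairs were early in both lists although the peaks lay kilobases apart. The pair with the smallest summed position was on chromosome 11, with the anti-Myb peak at 115762738 to 115763050 (row 132) and the anti-GFP peak at 115763861 to 115764197 (row 51), 1.14 kb apart. It was followed by the chromosome 19 pair of row 77. A further chromosome 19 pair had an anti-Myb peak at 43770091 to 43770403 (row 172) and an anti-GFP peak 6.28 kb away (row 120). The anti-Myb peak at 42818960 to 42819272 on the same chromosome (row 253) was 8.34 kb from row 4 of the anti-GFP list, which another anti-Myb peak overlapped. On chromosome 2 the anti-Myb peak at 6184970 to 6185282 (row 182) was 3.34 kb from an anti-GFP peak at row 184, also overlapped by another anti-Myb peak. Of these 5 pairs, 3 were on chromosome 19 and 2 stood beside a shared site. The 3 on chromosome 19 all lay in the segment of that chromosome left out in an alternative below, so they are not examples from separate parts of the genome.

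Peaks of the range were found on all 20 chromosomes with assembled peaks, 1 to 19 and X, and on no other sequence. Chromosome 2 held the most, with 43, followed by chromosome 5 with 42 and chromosome 7 with 41. As a share of the chromosome's anti-Myb peaks, against 14.2% of the list, chromosome 7 had 20.7% (15.3% to 27.0%) and chromosome 8 19.8% (14.0% to 26.6%). Chromosome 16 had 8.11% (3.77% to 14.8%), and chromosome X had 2 of 68 peaks (2.94%, 0.358% to 10.2%). The interval left out the whole-list value on chromosomes 7 and X only, out of 20 intervals read without correction for their number. Chromosome X had the fewest anti-GFP peaks of the 20, with 178, and the part of this in its low share was not tested. In windows of 1 Mb, the 485 peaks fell into 266 windows with 1 peak, 64 with 2, 21 with 3 and 7 with 4, so they were scattered over the genome. The windows with 4, chosen after their values were seen, included chromosome 7 from 87 to 88 Mb and from 134 to 135 Mb.

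**Figure D5:**
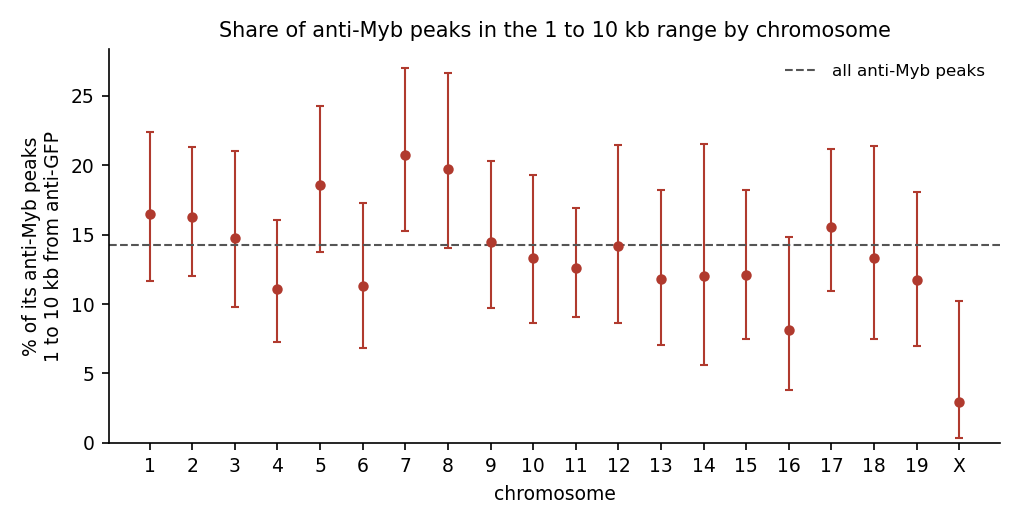
Points give the percent of each chromosome's anti-Myb peaks that lay 1 to 10 kb from an anti-GFP centre (y axis) by chromosome (x axis), with exact 95% binomial intervals as whiskers; the dashed line is the 14.2% of the whole list. The intervals of chromosomes 7 (above) and X (below) leave out the line.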

How the data were processed

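CUT&RUN libraries of MEL cells were made with a protein A nuclease on bead-bound, permeabilized cells, per the labels' protocols. The mm9 build, HOMER 4.10.3, deepTools 3.4.2, STAR 2.7.9a, Trim Galore 0.6.6, Picard 2.17.11 and SAMtools 1.11 are listed, without roles, per the submitters' processing notes. The peak threshold and control library are not given in the sources used, and each of these decides which peaks are listed. Every peak had the same deposited score, 1, and so no height. Coordinates are printed 1-based on mm9. No mm9 genome or annotation was used here, so no gene or sequence is assigned to a peak.

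Nearest centres, overlaps of at least 1 bp, runs of peaks and the 20 fixed shifts were computed with NumPy 2.4.6 and SciPy 1.17.1 in Python 3.11.15, on tables read with pandas 2.3.3. The counting was checked on simulated lists. Figures were drawn with matplotlib 3.10.9. Named peaks were the 10 earliest rows, the 3 nearest to each distance limit on either side, the 5 pairs with the smallest summed list positions and the 3 neighbourhoods with the most such peaks, ties broken by the total number of peaks and then by the earliest row. The peaks, rules and alternatives were chosen with earlier results of these data known.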

Additional observations from a re-analysis of the deposited data

How the results depend on the processing

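The 7 results were recomputed under 13 alternatives, 3 of them for the ratio to the local shifts alone; those on the peaks moved, shifts of 60 to 100 kb, the neighbour without a second anti-Myb peak, and leaving out segments of chromosomes 9, 3 and 19 were chosen after seeing the data. The median list position and the share with an overlapped neighbour stayed within their intervals under all 9 alternatives tried for each. Without the segments of chromosomes 9, 3 and 19, which held some of the early peaks named above, the count was 471 and the median list position 47.8%. The count of 485 became 696 with a lower limit of 500 bp and 392 with 2000 bp, so it depended on the lower limit too. It became 253 with an upper limit of 5 kb, 866 with 20 kb, and 195 in the first 50% of each list. The ratio of 0.844 became 1.14 with a lower limit of 500 bp, 0.769 with 2000 bp, 1.01 with an upper limit of 5 kb and 1.02 in the first 50% of each list. It was 0.935 with shifts of 20 to 100 kb, 1.01 with 60 to 100 kb, and 1.36 when only peaks without an anti-GFP centre within 1 kb were moved, so it lay on either side of 1. The share with another anti-Myb centre within 10 kb was 32.3% with an upper limit of 20 kb and 15.9% for neighbours without another anti-Myb centre within 1 kb. Distance limits moved the median distance by construction, to 2521 bp (lower limit 500 bp), 5730 bp (2000 bp), 2433 bp (upper limit 5 kb) and 8504 bp (20 kb). The share with the neighbour at the higher coordinate was 47.2% in the first 50% of each list. Where not stated, the cause was not tested. Without read depth, an unlisted site is not shown to be unbound. No paired analysis was possible because each antibody had 1 library.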
